A study of Mus musculus with 14 samples.

Results

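The windows of accessible chromatin around the start sites of the ribosomal protein genes were followed in regulatory T (Treg) cells of adult mice in which the transcription factor Foxp3 was degraded or left intact. A window belonged to the set when its centre lay within 1 kb of the start site of a protein-coding gene whose symbol begins with Rpl or Rps and a digit, or with Rplp, with the S6 kinase genes (Rps6k) left out. The start site was the outer edge of the gene's RefSeq model on the mouse assembly GRCm38 (mm10), on the side its strand begins. This rule took 90 genes and 297 of the 240778 windows in the deposited table, and no measured value entered it. The genes comprised 43 of the large subunit, 30 of the small subunit, the 3 stalk genes, 7 paralogs, 6 with symbols of the retrogene or pseudogene kind and Rps19bp1, whose symbol fits although it encodes a binding partner of a ribosomal protein. At least 1 window was found for 79 genes, and 11 had none: Rps2, Rps25, Rps19bp1, Rpl3l, Rpl10l, Rpl39l, Rpl31-ps12, Rpl32l, Rpl37rt, Rps23rg1 and Rps27rt. A gene with a window had a median of 4, from 1 to 10, and 106 of the 297 windows overlapped another window, so that windows of a gene shared reads and were not independent.

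ATAC-seq, which reads out open chromatin by the insertions of the transposase Tn5, had been performed on 14 libraries of Treg cells from spleen and lymph nodes. All mice carried the Foxp3AID allele, in which a degron that responds to auxin is fused to Foxp3 and the locus also makes a ZsGreen reporter and Cre, and all received 5-ph-IAA, the ligand of the degron system, for 3 or 7 days. R26TIR1(F74G) mice also carried the plant ubiquitin ligase TIR1(F74G) and mCherry at the ROSA26 locus behind a loxP-flanked STOP cassette, so that Foxp3-driven Cre confined TIR1 to Foxp3-expressing cells, whereas R26WT mice lacked TIR1 and kept Foxp3 in the presence of the drug. This gave 4 groups, with 4 mice per genotype on day 3 and 3 mice per genotype on day 7. The study's methods describe heterozygous Foxp3AID/WT females for these time points, in which other Treg cells of the same mouse use the intact allele, and ZsGreen+ cells were sorted. The sorting methods also require mCherry in R26TIR1(F74G) mice. The study presents its day 7 ATAC-seq for resting and activated cells. The labels, however, name the cells Treg without separating resting from activated cells and give no ages.

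Library totals ran from 5653289 counts (day 3 R26TIR1(F74G), replicate 1) to 20184487 counts (day 7 R26TIR1(F74G), replicate 3), and from 21598 to 85206 of these fell into the ribosomal protein windows. This was 0.378% to 0.431% of a library, whereas windows within 1 kb of any protein-coding start took 42.4% to 46.6%. Levels are given below as CPM, the count of a window relative to the library total, scaled between libraries by the trimmed mean of M-values (TMM). Every window spanned 201 bp, so levels of different windows are per equal length, and the leading window of a gene is its window with the highest mean CPM over the 14 mice. The T cell genes Cd3e, Cd3g, Cd4 and Cd5 summed to 30.6 to 52.4 CPM over their leading windows in the 14 mice, and the Treg genes Il2ra, Ctla4 and Ikzf2 summed to 43.2 to 57.5 CPM, whereas Foxp3 and Tnfrsf18 had no window within 1 kb of their gene edge. Of 5 B cell genes only Cd79b had a window (1.34 CPM on average), none of the 2 natural killer cell genes had one, and 3 of 5 myeloid genes (Itgam, Cd14 and Spi1) summed to 8.997 to 11.68 CPM. Cd8a stood at 1.33 CPM and Cd8b1 at 12.5 CPM. In the sum of T cell genes the lowest library was in the day 3 R26TIR1(F74G) group (30.6 to 47.1 CPM, against 44.6 to 52.4 CPM in day 3 R26WT mice), and the part of sample make-up in the genotype differences below was not tested.

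Ribosomal proteins assemble with ribosomal RNA into the small (40S) and large (60S) subunits of the cytoplasmic ribosome, and their genes are transcribed in all growing cells. Transcription typically starts at a cytosine within a run of pyrimidines, and the messenger RNAs carry a 5′ terminal oligopyrimidine (TOP) tract through which growth signals set their translation. Lymphocytes raise ribosome production when they leave the resting state. ATAC-seq at these promoters reports how open the chromatin is and measures neither transcripts nor translation.

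The sequences below run from 80 bases before the annotated start through the first 30 bases of the gene, for 9 genes whose windows carry the results, read from RefSeq's GRCm38 promoters 5′ to 3′ on the gene's strand. They are shown because windows of these genes were among the most open (Rps6, Rpl15) or showed the named differences between genotypes or days (Rpl10a, Rps28, Rplp0, Rps18, Rpl31, Rpl35). Several windows named below lie outside the stretch shown. They are those of Rplp0 at 288.5 bp, Rps18 at -420.5 bp, Rpl31 at -542.5 and -486.5 bp and Rpl35 at -669.5 bp. Rpl13a is shown for its CTTTCC, which begins 9 bases downstream of the annotated start. Capitals mark every match on either strand to the searched motifs TATAAA (the TATA box), CCGGAAGT (the site of ETS factors), AAGATGGC (YY1), TCGCGAGA (a palindromic element of housekeeping promoters, whose matches on both strands can overlap by all but 2 bases), CACGTG (the E box), GGGCGG (the GC box), and CTTTCC or CTTTTC within 20 bases of the start on the gene's strand.
Rps6, chr4:86857338-86857447, minus strand: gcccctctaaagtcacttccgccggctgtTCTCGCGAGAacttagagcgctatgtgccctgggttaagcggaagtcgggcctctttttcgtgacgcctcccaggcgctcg
Rpl15, chr14:18270957-18271066, minus strand: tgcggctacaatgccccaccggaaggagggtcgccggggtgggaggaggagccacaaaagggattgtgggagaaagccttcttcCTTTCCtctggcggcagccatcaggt
Rpl13a, chr7:45128716-45128825, minus strand: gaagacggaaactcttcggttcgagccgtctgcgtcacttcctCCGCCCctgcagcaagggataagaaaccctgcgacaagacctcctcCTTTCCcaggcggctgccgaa
Rpl35, chr2:39005102-39005211, minus strand: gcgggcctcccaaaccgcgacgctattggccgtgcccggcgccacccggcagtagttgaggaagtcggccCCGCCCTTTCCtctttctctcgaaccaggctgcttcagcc
Rps28, chr17:33824533-33824642, minus strand: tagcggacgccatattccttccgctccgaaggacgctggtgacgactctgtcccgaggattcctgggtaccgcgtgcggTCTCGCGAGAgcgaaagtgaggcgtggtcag
Rpl31, chr1:39367771-39367880, plus strand: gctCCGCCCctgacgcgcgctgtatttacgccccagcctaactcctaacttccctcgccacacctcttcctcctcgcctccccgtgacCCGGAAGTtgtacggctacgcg
Rps18, chr17:33955636-33955745, minus strand: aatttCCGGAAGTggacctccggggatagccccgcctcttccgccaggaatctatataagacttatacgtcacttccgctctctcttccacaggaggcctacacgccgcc
Rplp0, chr5:115559387-115559496, plus strand: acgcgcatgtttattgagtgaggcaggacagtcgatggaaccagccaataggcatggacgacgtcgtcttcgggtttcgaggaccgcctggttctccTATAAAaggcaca
Rpl10a, chr17:28328391-28328500, plus strand: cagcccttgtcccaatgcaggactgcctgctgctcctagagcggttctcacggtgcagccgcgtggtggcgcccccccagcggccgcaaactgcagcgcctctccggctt
Rps6 and Rps28 both hold the palindromic element, 51 bases upstream of the start in Rps6 and spanning the start in Rps28. Rpl31 and Rps18 hold the ETS motif 8 bases downstream and 75 bases upstream of the start, and Rpl10a holds none of the motifs in this stretch.

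Among the 69 member genes with a RefSeq promoter sequence (250 bases before to 50 after the start), the palindromic TCGCGAGA was present in 10 (14.5%), namely Rpl7a, Rpl12, Rpl26, Rpl27a, Rpl35, Rps3a1, Rps6, Rps15a, Rps19 and Rps28, against 1.49% of the promoters of 17423 other genes. The pyrimidine hexamers CTTTCC or CTTTTC near the start were found in 14 (20.3%, against 2.84%), and a cytosine at the annotated start in 24 (34.8%, against 13.6%). The ETS motif CCGGAAGT was found in 10 (14.5%, against 5.38%), AAGATGGC in 5 (7.25%, against 3.25%) and GGGCGG in 40 (58.0%, against 47.4%). TATAAA (8 genes, 11.6%, against 13.1%) and CACGTG (5 genes, 7.25%, against 7.92%) were no more frequent than elsewhere in these counts. The median GC content was 56.7% in both sets, and 14 member promoters held none of the motifs. For levels beside the motif, the most open window within 1 kb of the start used for the promoter sequence was taken. In some genes, such as Rpl22, it is not the leading window at the gene edge. The 10 genes with TCGCGAGA had a median of 31.98 CPM and the other 48 genes with a window and a promoter sequence 27.2 CPM. Other protein-coding genes with and without the motif stood at 30.2 and 19.0 CPM. These counts describe letters in a fixed stretch and were not tested.

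The ribosomal protein promoters were more open than most promoters in these cells. The leading windows of the 79 genes had a median of 29.8 CPM (quartiles 20.8 and 40.7 CPM), against 18.4 CPM (quartiles 7.27 and 31.7 CPM) in 11538 other protein-coding genes with a window. Of the 79, 67 lay above the median of the other genes, 32 above their upper quartile and 5 below their lower quartile. The median was 31.6 CPM in the small subunit (28 genes), 27.1 CPM in the large subunit (43 genes), 34.4 CPM in the stalk (3 genes) and 30.1 CPM in the paralogs (4 genes). Within the set, however, leading levels differed by 36.1 times between the highest and the lowest gene, although the leading window of the lowest, Rpl17, lay away from its gene edge, as described below.

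**Figure D1:**
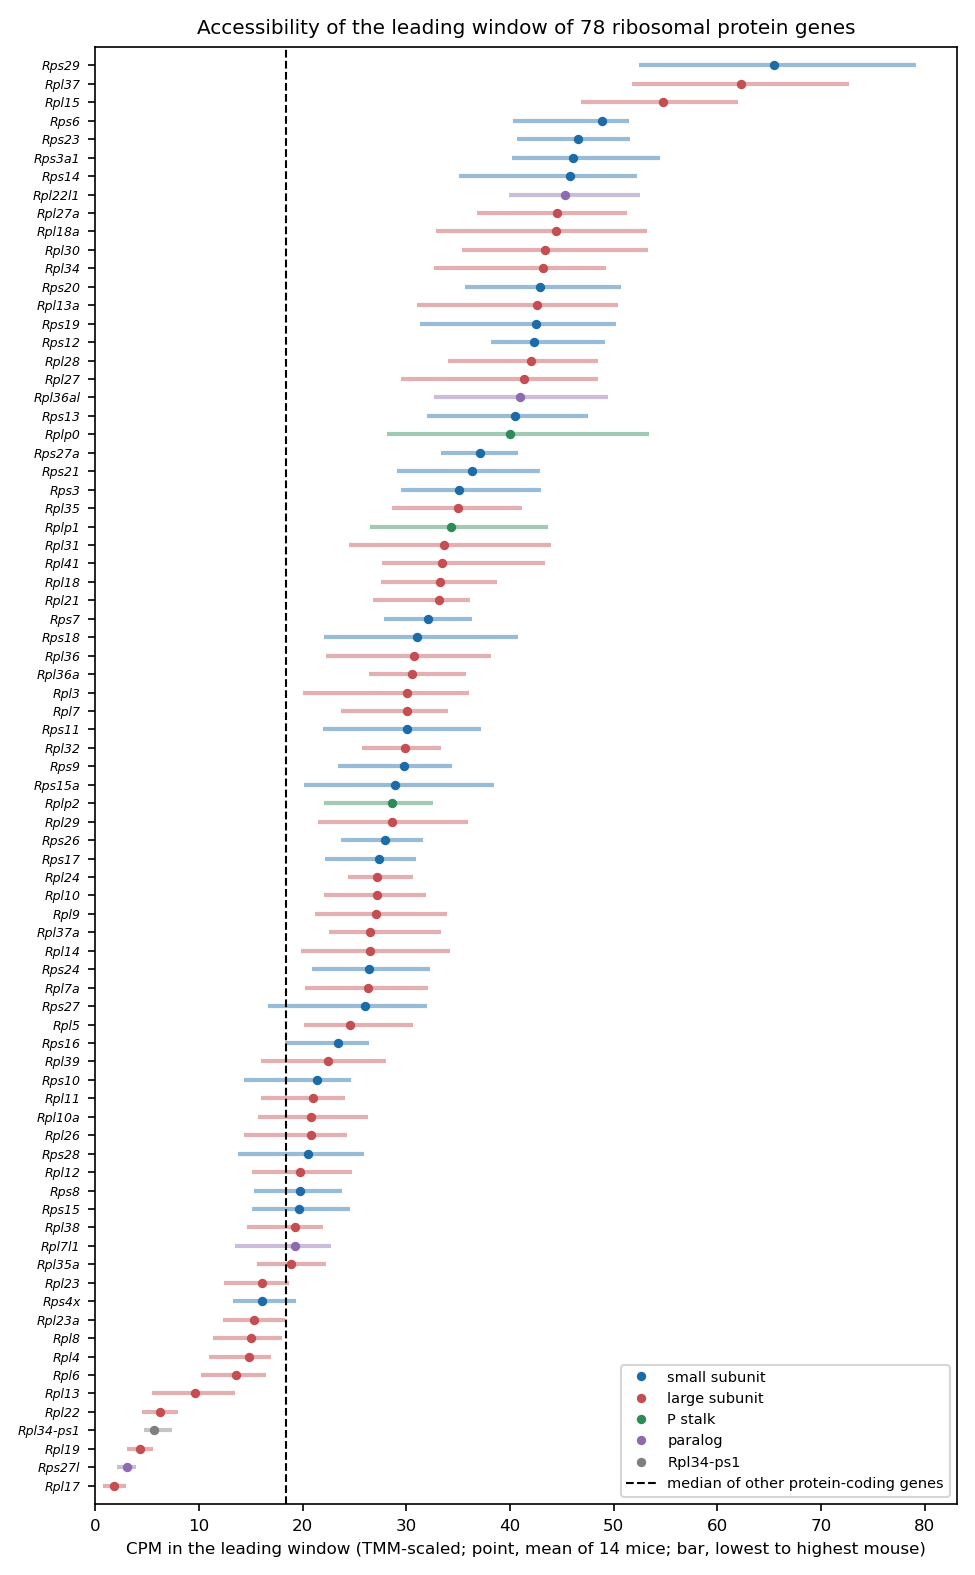
Leading-window level in CPM of 78 of the ribosomal protein genes, with the mean of 14 mice as a point, the lowest to highest mouse as a bar and color by subunit. Rps29 (65.5 CPM) stood highest and Rpl17 (1.82 CPM) lowest, and most genes lay to the right of the dashed median of other protein-coding genes (18.4 CPM).

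Among the 10 highest genes, from 65.5 down to 44.5 CPM, were Rps29, Rpl37, Rpl15, Rps6, Rps23, Rps3a1, Rps14, Rpl22l1 and Rpl27a. Rps29, a small-subunit protein, ranged from 52.5 to 79.2 CPM over the 14 mice with a median of 66.6 CPM, and Rpl37 of the large subunit, whose window is also within 1 kb of the start of Card6, from 51.8 to 72.7 CPM with a median of 62.2 CPM. Rpl15, also of the large subunit, ranged from 46.8 to 62.0 CPM. The ranges of these neighbors over the mice overlapped, so that the order does not separate them, although the lowest mouse at Rps29 lay above the highest at Rps6 (51.5 CPM) and Rpl27a (51.3 CPM). Rps6, the substrate of the S6 kinases, stood at 48.9 CPM and varied little (median 49.8 CPM, 40.3 to 51.5 CPM). Rpl22l1, the paralog of Rpl22, stood at 45.3 CPM and was thus the most open paralog promoter. Summing the non-overlapping windows of each gene in place of its leading window kept 6 of these 10 genes among the 10 highest.

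The 10 lowest genes were Rpl17 (1.82 CPM), Rps27l (3.03 CPM), Rpl19 (4.34 CPM), Rpl34-ps1 (5.69 CPM), Rpl22 (6.21 CPM), Rpl13 (9.64 CPM), Rpl6 (13.6 CPM), Rpl4 (14.8 CPM), Rpl8 (15 CPM) and Rpl23a (15.4 CPM). The leading windows of the 5 lowest lay between 607.5 and 969.5 bp downstream of the gene edge rather than at it. For several genes the RefSeq promoter table held a start that lies inside the gene model, with a more open window near it. Rpl22 had 41.4 CPM at a start 1290 bp downstream of its edge, Rps27l, a p53-inducible paralog of Rps27, had 19.9 CPM 1462 bp downstream, and Rpl19 had 16.2 CPM 4921 bp downstream. Rps2, without a window at its edge, had 34.3 CPM at a start 1942 bp downstream. With the starts of that table, 59 member genes had a window, with a median of 27.99 CPM against 19.4 CPM in 9885 other genes, and 51 of them had it within 100 bp of the start. The low levels of Rpl22, Rps27l and Rpl19 at the edge are therefore levels of another stretch of the gene, and the window of Rps2 is outside the set only because it lies over 1 kb from the annotated edge.

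Accessibility was concentrated at the start. The leading window was centred within 100 bp of the start in 58 of the 79 genes (73.4%, against 55.1% of other protein-coding genes), was over 500 bp away in 7, and lay upstream in 49, with a median position of -23.5 bp (negative, upstream). Windows centred between -250 and -100 bp had a median of 37.8 CPM (11 windows), those within 100 bp of the start 28.8 CPM (62 windows), those between -500 and -250 bp 11.1 CPM (39 windows), and those between 250 and 500 bp 7.95 CPM (57 windows). At the margins the medians were 3.16 CPM (-1000 to -750 bp) and 2.10 CPM (750 to 1000 bp). The windows nearest the limit of the rule were those of Rps23 (-993.5 bp, 2.10 CPM), Rpl14 (-988.5 bp, 1.67 CPM) and Rps27a (-983.5 bp, 3.00 CPM) inside, and those of Rpl38 (1004.5 bp, 8.69 CPM), Rpl7 (-1014.5 bp, 17.5 CPM) and Rpl19 (-1020.5 bp, 1.64 CPM) outside. Leading windows of 14 genes were also within 1 kb of the start of another protein-coding gene, among them Rps18 with Vps52, Rps28 with Ndufa7, Rpl4 with Zwilch and Rplp2 with Pidd1, and their reads cannot be assigned to either gene.

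**Figure D2:**
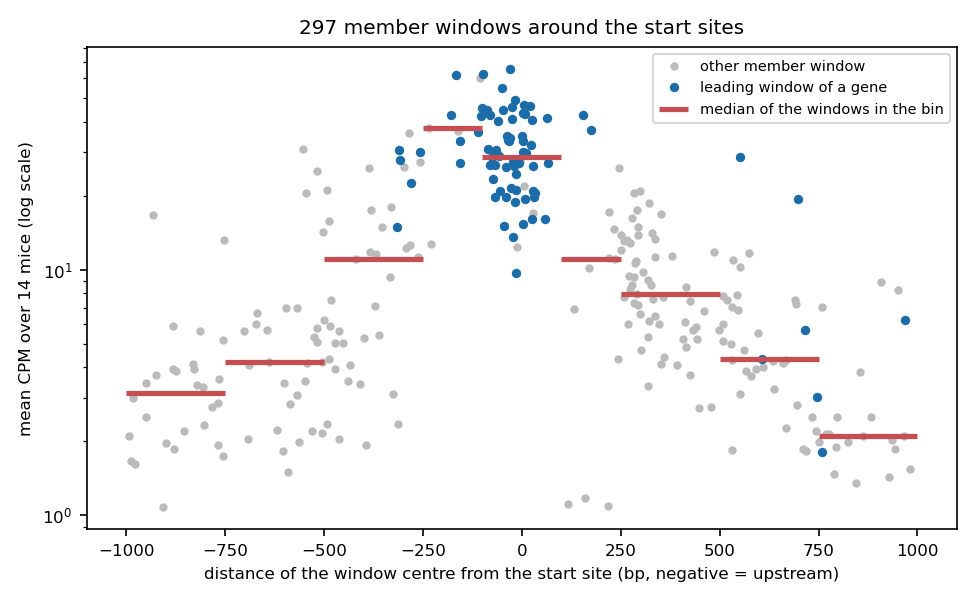
Mean CPM over 14 mice (log scale) of the 297 windows against the distance of their centre from the start site, with leading windows in blue and the median of each distance bin as a red line. The medians were 37.8 CPM between -250 and -100 bp and 2.10 CPM between 750 and 1000 bp downstream.

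By role, the stalk genes Rplp0, Rplp1 and Rplp2, whose proteins form the lateral stalk of the large subunit that recruits translation factors, stood at 40.1, 34.4 and 28.7 CPM. Rpl5 and Rpl11, which with 5S ribosomal RNA can bind the p53 regulator Mdm2, stood at 24.57 and 20.99 CPM, with ranges over mice that overlapped. Rps19, mutated in Diamond-Blackfan anaemia, stood at 42.5 CPM (31.3 to 50.2 CPM), Rps3, a small-subunit protein that also acts in DNA repair, at 35.1 CPM, and Rpl13a, a large-subunit protein with a role in interferon-dependent translational silencing, at 42.6 CPM. Of the X-linked genes Rpl36a had 30.5 CPM, Rpl10 27.1 CPM, Rpl39 22.5 CPM and Rps4x 16.1 CPM. Of the paralogs, Rpl36al was at 40.9 CPM, although its window is shared with Mgat2, and Rpl7l1 at 19.3 CPM. The muscle paralog Rpl3l and the testis paralogs Rpl10l and Rpl39l were the paralogs without a window. The spread between mice was similar to that of other promoters, with a median coefficient of variation of 11.7% over the 79 genes, from 5.80% (Rps27a) to 32.5% (Rpl17). Between the quartiles of the members' levels it was 11.3% in 39 member genes and 11.6% in 3558 other genes. Rpl13 (24.9%) and Rps15a (22.8%) were variable for their level. Rps15a ranged from 20.1 to 38.4 CPM without a split by genotype, with 20.6 and 38.1 CPM in replicates 2 and 1 of the day 3 R26TIR1(F74G) mice.

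The level of the ribosomal protein promoters as a whole varied between mice. Expressed as the median difference of log2(CPM + 0.5) from the mean of all 14 mice, the 79 leading windows stood at -0.033, 0.0020, -0.266 and -0.112 in the day 3 R26TIR1(F74G) mice (replicates 1 to 4) and at -0.050, 0.024, 0.100 and 0.204 in the day 3 R26WT mice. On day 7 they stood at 0.016, -0.024 and 0.066 in R26TIR1(F74G) mice and at 0.104, 0.111 and -0.094 in R26WT mice. The genotypes overlapped on both days. Replicate 3 of day 3 R26TIR1(F74G) was the lowest of the 14 mice in 42 of the 79 genes and replicate 4 of day 3 R26WT the highest in 35, and the leading windows of other protein-coding genes gave -0.195 and 0.182 for these mice. They are called below the mice that stood apart, as the ends of this spread, although Dixon's criterion for outlying values flagged neither by these medians. The library names carry the prefix AC or E before the mouse, of unstated meaning. Within prefix AC the day 3 genotype difference of these medians was -0.040 (2 against 3 mice) and that of other genes 0.024, while within E it was -0.393 (2 against 1 mouse) and -0.317 in other genes. On day 7 it was -0.044 within AC (-0.035 in other genes), and within E there was no R26WT mouse.

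**Figure D3:**
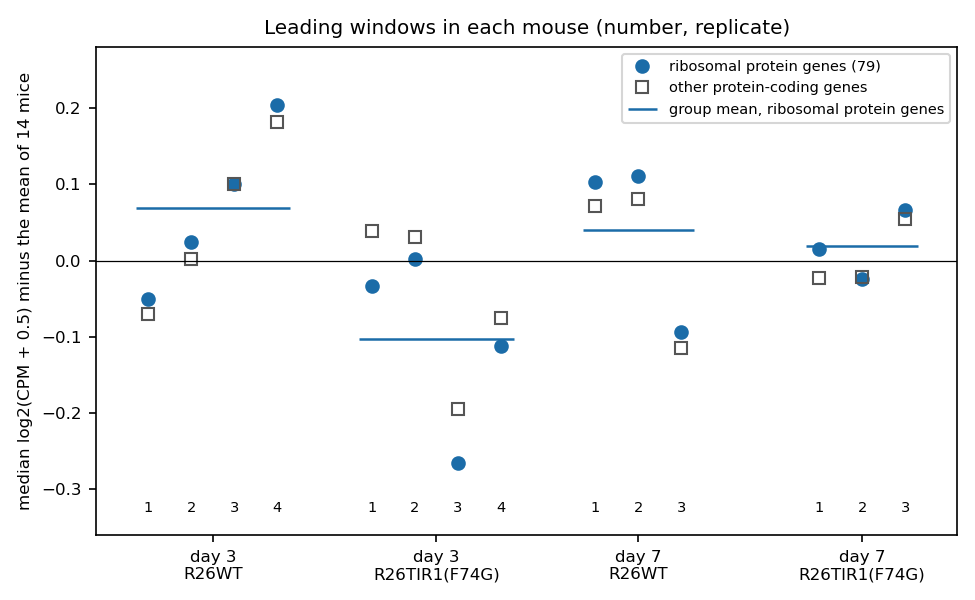
Median log2(CPM + 0.5) of the leading windows of each mouse relative to the mean of 14 mice, for the 79 ribosomal protein genes (filled) and other protein-coding genes (open squares), with the group mean of the former as a line. Replicate 3 of day 3 R26TIR1(F74G) (-0.266) was the lowest mouse and replicate 4 of day 3 R26WT (0.204) the highest, with open squares at -0.195 and 0.182.

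The first comparison asked whether these promoters differed between the genotypes on day 3. No library came from R26TIR1(F74G) mice without the drug, so the presence of TIR1(F74G) and mCherry was not separated from the loss of Foxp3. No ribosomal protein window passed the test (edgeR's quasi-likelihood test, Benjamini-Hochberg adjusted p under 0.05 over all windows, smallest adjusted p among members 0.443), against 0% of the 235515 windows tested. DESeq2 called none either. Most windows were nevertheless slightly lower in R26TIR1(F74G) mice, and in bulk chromatin fewer cells with an open window and less opening per cell cannot be told apart. A negative log2 fold change (R26TIR1(F74G) over R26WT) was seen in 231 of 297 windows (77.8%), against 61.4% of all promoter windows and 48.8% of all windows, with a median of -0.115 against -0.060 and 0.008, respectively. In 41 windows (13.8%), all lower, the unadjusted p was under 0.05, against 8.53% of promoter windows and 7.55% of all windows, where 3.62% were lower with that p. DESeq2 gave 36 such windows, against 4.99% of all windows. The mice of both genotypes did not overlap in 17 windows (5.72%), all lower in R26TIR1(F74G), against 4.1% of all windows and 2.11% in that direction. Among leading windows 76 of 79 were lower (median -0.170), as were 7997 of 10530 over all protein-coding genes (median -0.112). This count fell to 54 of 79 (median -0.049) with loess offsets, which remove trends along the level, and to 59 of 79 (median -0.077) without both mice that stood apart. The size went with the level of the window. At over 15 CPM the median was -0.165 in members and -0.131 in other promoter windows. Between 5 and 15 CPM it was -0.1125 and -0.0889, and under 5 CPM it was -0.036 and 0.022.

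The size of this shift varied with the scaling and with the mice included. With libraries scaled by total counts 191 of the 297 windows were lower (64.3%, median -0.060). With loess offsets 183 were lower (61.6%, median -0.044), and with TMM factors from promoter windows alone 184 (62.0%, median -0.052). The medians of all promoter windows were -0.004, -0.002 and 0.003 under these scalings, each above the member median. These promoter windows were not matched to the members in level, with which the shift went, so the medians do not separate membership from level. With loess offsets 21 windows had an unadjusted p under 0.05, against 6.69% of all windows. When single mice were left out, the count ranged from 18 to 60. It was 18 without R26TIR1(F74G) replicate 3 (against 5.8% of all windows) and 21 without R26WT replicate 4 (against 5.87%). It was 60, all lower, without R26TIR1(F74G) replicate 2 (against 8.98%). Without both mice that stood apart, 12 had, of which 8 were lower, against 4.88% of all windows. The median was then -0.079, against -0.020 in promoter windows. Both mice were picked by the level of their own leading windows, so leaving them out shrinks the genotype difference by construction, here and elsewhere. Among leading windows, 22 (27.85%) had such a p with all mice, against 14.5% of the leading windows of all protein-coding genes. Without both mice 1 had.

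The small-subunit genes (27 of 28 leading windows lower, median -0.186) and the large-subunit genes (41 of 43, median -0.160) gave similar values, and the 3 stalk genes had a median of -0.307. Rplp1, a stalk protein, had 35.84, 36.71, 32.99 and 43.67 CPM in day 3 R26WT mice and 32.01, 31.06, 26.53 and 29.04 CPM in R26TIR1(F74G) mice. The groups did not overlap, and the log2 fold change was -0.34 ± 0.12 (SE; adjusted p = 0.522). Rplp0 had 40.6, 40.3, 40.3 and 53.4 CPM against 39.2, 38.1, 28.1 and 36.5 CPM, again without overlap (-0.31 ± 0.12, adjusted p = 0.561), with the extreme values in the mice that stood apart above. Its window 288.5 bp downstream (chr5:115559655-115559856) had the lowest log2 fold change among windows with a mean of at least 50 counts, with 12.4 ± 1.33 CPM (SD, n = 4) in R26WT and 8.60 ± 2.05 CPM in R26TIR1(F74G) mice (-0.48 ± 0.15, adjusted p = 0.467). The window of Rps18, a small-subunit protein, at -420.5 bp (chr17:33955985-33956186), which lies 306.5 bp from the start of Vps52, had 12.3 ± 0.38 CPM and 8.71 ± 0.82 CPM (-0.48 ± 0.14, adjusted p = 0.443). In R26WT mice its values were 11.9, 12.8, 12.4 and 12.2 CPM, above the 7.55, 8.85, 8.94 and 9.49 CPM of R26TIR1(F74G) mice. The window of Rpl31, a protein at the exit of the nascent chain, at -542.5 bp followed with -0.43 ± 0.20 (adjusted p = 0.626).

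The largest positive values on day 3 among windows with a mean of at least 50 counts were those of Rpl10 at 567.5 bp (0.32 ± 0.20), Rpl37 at 757.5 bp (0.27 ± 0.16) and Rpl14 at -690.5 bp (0.22 ± 0.20), all away from the start, at 3.36 to 7.72 CPM per group and with overlapping mice. Among leading windows of known role, Rpl13a (-0.32 ± 0.11, adjusted p = 0.535), Rps19 (-0.26 ± 0.11, adjusted p = 0.613), Rps3 (-0.20 ± 0.12) and Rpl5 (-0.22 ± 0.12) had negative values, beside the median of -0.170 over leading windows. Rps6 (48.5 ± 5.52 against 48.1 ± 1.82 CPM, -0.02 ± 0.11) and the X-linked Rpl36a (30.4 ± 2.97 against 30.6 ± 3.54 CPM) had nearly equal means.

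**Figure D4:**
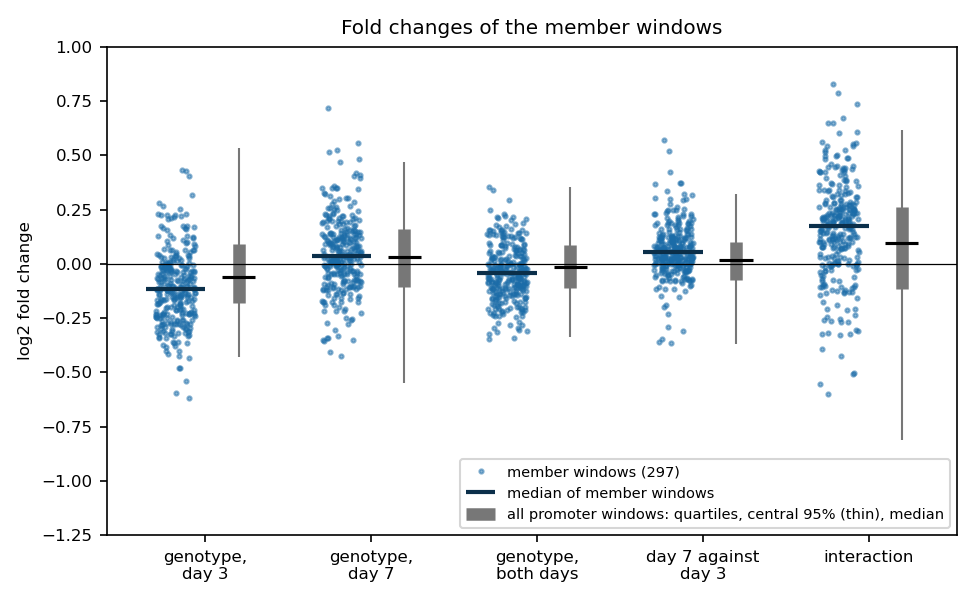
Log2 fold changes of the 297 windows in each comparison (points) with their median (dark line), beside the median, quartiles and central 95% of all promoter windows (gray). Most day 3 genotype values lay below 0 (median -0.115) and most interaction values above 0 (median 0.173), and no window passed the adjusted test.

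The second comparison asked the same on day 7. No member window passed (edgeR, smallest adjusted p 0.429; DESeq2 also none), against 0.00463% of 237811 windows. The windows were spread around 0, with 39.7% of the 297 lower in R26TIR1(F74G) mice (against 43.7% of promoter windows and 51% of all windows) and a median of 0.035 (0.030 in promoter windows). Leading windows went the other way in 55 of 79 genes (median -0.044), as did 5980 of 10534 over all protein-coding genes (median -0.024). Without R26WT replicate 3 the median of all member windows was -0.011. The unadjusted p was under 0.05 in 13 windows (4.38%), 11 of them higher in R26TIR1(F74G), against 5.95% of all windows, and in 22 (14 lower) without R26WT replicate 3, against 6.28%. Groups did not overlap in 36 windows (12.1%), 24 higher and 12 lower, against 11.8% of all windows.

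The window of Rpl7a, a large-subunit protein, 528.5 bp downstream of the start (chr2:26911113-26911314) and 571.5 bp from that of Med22 had the highest value among windows with a mean of at least 50 counts, with 3.55, 4.13 and 3.30 CPM in R26WT and 6.90, 5.31 and 6.17 CPM in R26TIR1(F74G) mice. All 3 R26TIR1(F74G) mice were above all 3 R26WT mice (log2 fold change 0.72 ± 0.19, adjusted p = 0.429), whereas on day 3 the genotypes overlapped. Rpl35 at -669.5 bp, upstream of the oligopyrimidine start shown above, had 5.38 ± 0.51 (SD, n = 3) and 7.87 ± 0.71 CPM (0.52 ± 0.16, adjusted p = 0.675), and Rpl13 at 392.5 bp 0.51 ± 0.20 (adjusted p = 0.782). Under the same limit the lowest value belonged to the leading window of Rps28 (chr17:33824428-33824629), which spans the palindromic element at its start and is shared with Ndufa7, a subunit of respiratory complex I. It had 23.8, 23.4 and 25.9 CPM in R26WT and 19.3, 18.8 and 18.9 CPM in R26TIR1(F74G) mice, without overlap (-0.35 ± 0.12, adjusted p = 0.718). On day 3 the same window had 21.1 ± 2.47 and 18.3 ± 3.35 CPM with overlapping mice. Rpl38 at 242.5 bp (-0.34 ± 0.19) and Rpl31 at -486.5 bp (-0.33 ± 0.19) followed. Leading windows without overlap numbered 8 of 79 on each day (10.1%), all lower in R26TIR1(F74G). In that direction 4.9% of the leading windows of other genes and 2.11% of all windows did not overlap on day 3, and 7.49% and 6.02% on day 7, where in either direction the shares were 10.7% and 11.8%. The day 7 count is thus near the background.

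**Figure D5:**
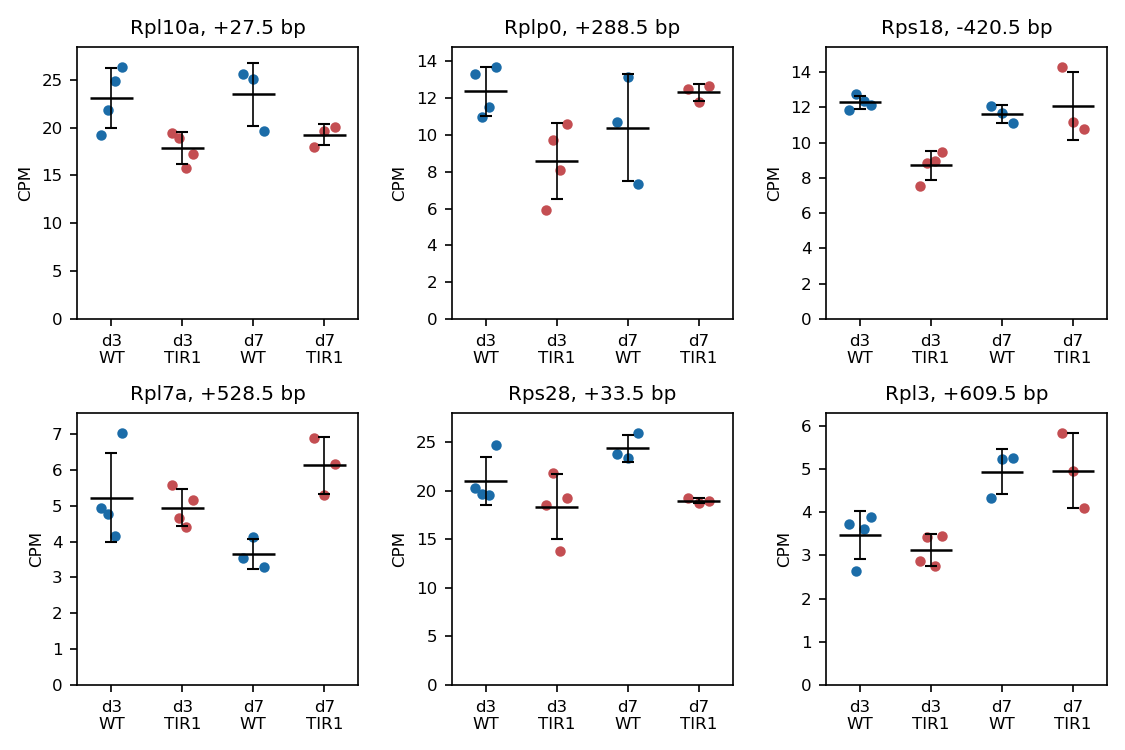
CPM of 6 named windows in each mouse by day (d3, d7) and genotype (WT, R26WT; TIR1, R26TIR1(F74G)), with group means and SD in black. The genotypes did not overlap on day 3 at Rplp0 and Rps18 or on day 7 at Rpl7a and Rps28, and all day 7 mice lay above all day 3 mice at Rpl3.

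With both days fitted together and day as a term, no member window passed in edgeR (smallest adjusted p 0.338), against 0.0112% of 240778 windows, while DESeq2 called 1, the leading window of Rpl10a, against 155 of all windows (0.0644%). In edgeR 25 windows (8.42%) had an unadjusted p under 0.05, all lower in R26TIR1(F74G), against 6.62% of promoter windows, 6.73% of all windows and 3.57% of all windows in that direction, and in DESeq2 30 had, against 5.88% of all windows. The log2 fold change was below 0 in 198 windows (66.7%, against 54.4% of promoter windows and 49.3% of all windows), with a median of -0.042. It was below 0 in 75 of 79 leading windows (median -0.111), as in 7727 of 10543 over all protein-coding genes (median -0.071). Of leading windows, 54 were below 0 with loess offsets (median -0.045) and 63 without both day 3 mice that stood apart (median -0.062). Under total-count scaling 163 of the 297 were below 0 (54.9%, median -0.0135, against 0.0145 in promoter windows). With loess offsets 160 were (53.9%, median -0.00697, against 0.0108). Without both day 3 mice that stood apart, 8 windows had an unadjusted p under 0.05, against 5.49% of all windows, and without day 7 R26WT replicate 3, 43 had, against 7.79%.

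Rpl10a encodes a large-subunit protein of the L1 stalk, which guides spent transfer RNA off the ribosome, and its leading window is centred 27.5 bp downstream of the start (chr17:28328398-28328599), overlapping the stretch without motif shown above. In R26WT mice it had 19.2, 21.9, 24.9 and 26.3 CPM on day 3 and 25.7, 25.1 and 19.6 CPM on day 7. In R26TIR1(F74G) mice it had 19.4, 18.9, 15.7 and 17.3 CPM on day 3 and 18.02, 19.67 and 20.08 CPM on day 7. Most R26WT values were higher, although replicate 1 on day 3 and replicate 3 on day 7 fell within the R26TIR1(F74G) range. Over both days the means were 23.2 ± 2.95 and 18.5 ± 1.54 CPM (SD, n = 7) and the log2 fold change -0.35 ± 0.09 (edgeR, adjusted p = 0.338), and it lay between -0.39 and -0.28 under all 26 alternatives. The adjusted p was 0.0272 in DESeq2 and 0.0468 in edgeR when only windows with a mean of at least 50 counts were tested (against 83 of 66750 windows called, 0.124%), and reached 0.720 at most. Under the limit of 50 counts the other low values were those of the overlapping Rpl31 windows at -486.5 and -542.5 bp (both -0.32 ± 0.14), and the high ones those of Rpl7a at 528.5 bp (0.25 ± 0.14), Rpl35 at -669.5 bp (0.22 ± 0.12) and Rps20 at 690.5 bp (0.21 ± 0.11).

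The days were compared with genotype as a term, although day is not separated from the mice taken on it. No window passed (edgeR, smallest adjusted p 0.500, against 0.00332% of all windows; DESeq2 also none), and 13 had an unadjusted p under 0.05 (4.38%, against 5.47% of all windows), 12 of them higher on day 7. The count of 13 ranged between 6 (without day 7 R26TIR1(F74G) replicate 1) and 22 (without day 7 R26WT replicate 3) when single mice were left out, and was 8 without day 3 R26TIR1(F74G) replicate 3, day 7 R26WT replicate 2 or day 7 R26TIR1(F74G) replicate 3, where 4.58% to 6.68% of all windows had such a p. Member windows were higher on day 7 in 219 of 297 (73.7%, median 0.053), against 55.2% of promoter windows and 48.8% of all windows, and in 191 with loess offsets (median 0.028). Rpl3, a core protein near the peptidyl transferase center, had the largest difference among windows with a mean of at least 50 counts, in a window 609.5 bp downstream (chr15:80082696-80082897), with 3.30 ± 0.47 CPM on day 3 (n = 8) and 4.95 ± 0.64 CPM on day 7 (n = 6). Day 3 mice ranged from 2.65 to 3.90 CPM and day 7 mice from 4.10 to 5.83 CPM, without overlap (log2 fold change 0.57 ± 0.14, adjusted p = 0.500). The leading window of Rpl13 (0.28 ± 0.13), the Rps15 window at 258.5 bp (0.25 ± 0.12), the Rpl39 window at 530.5 bp (-0.36 ± 0.14), the Rpl13 window at 392.5 bp (-0.15 ± 0.15) and the leading window of Rps15a (-0.15 ± 0.11) followed, with overlapping mice.

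The interaction of day and genotype tested whether the genotype difference itself changed between days. No member window passed (edgeR, smallest adjusted p 0.662; DESeq2 also none), as 0% of all windows did, and 21 had an unadjusted p under 0.05 (7.07%, against 7.02% of promoter windows and 6.32% of all windows), all with a higher genotype difference on day 7. When single mice were left out, the count ranged from 11 without day 7 R26WT replicate 3 (against 5% of all windows) to 39 without day 3 R26TIR1(F74G) replicate 2 (against 7.86%). The value was above 0 in 233 windows (78.45%, median 0.173), against 63.1% of promoter windows (median 0.094) and 48.7% of all windows. It was above 0 in 189 with loess offsets, in 191 with TMM factors from promoter windows (which shift the median of all windows to -0.110) and in 213 with total counts. For leading windows it was above 0 in 67 of 79 genes (median 0.124), as in 7177 of 10543 over all protein-coding genes (median 0.091). With loess offsets it was above 0 in 37 of the 79. Among windows with a mean of at least 50 counts the largest values were those of Rpl7a at 528.5 bp (0.83 ± 0.26), Rpl13 at 392.5 bp (0.79 ± 0.28) and Rplp0 at 288.5 bp (0.67 ± 0.22), and the lowest those of Rpl38 at 242.5 bp (-0.39 ± 0.28), Rps12 at -517.5 bp (-0.32 ± 0.25) and Rps3a1 at -524.5 bp (-0.31 ± 0.24).

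Leading windows of related gene groups gave day 3 values of like sign and size, and none of them passed the test in any comparison. Of ribosomal protein genes that the symbol rule leaves out, Rpsa (-0.24 ± 0.12, adjusted p = 0.656), Rack1 (-0.17 ± 0.12, adjusted p = 0.781) and Fau, a small-subunit protein made as a ubiquitin-like fusion (-0.44 ± 0.12, adjusted p = 0.414), had negative values in R26TIR1(F74G) mice. The window of Fau is also that of Mrpl49, a mitochondrial ribosomal protein gene counted in its own group. Other genes of TOP messenger RNAs, such as elongation factors, were lower in 14 of 17 (median -0.130), ribosome biogenesis genes in 36 of 41 (median -0.114), mitochondrial ribosomal protein genes in 65 of 74 (median -0.167) and proteasome subunit genes in 30 of 35 (median -0.157), beside a median of -0.112 over all protein-coding genes. The unadjusted p on day 3 (edgeR) was under 0.05 in 26.83% of the ribosome biogenesis genes, 22.86% of the proteasome genes and 20.27% of the mitochondrial ribosomal protein genes. It was so in 5.88% of the other TOP genes, beside 27.85% of the members and 14.5% of all protein-coding genes. On day 7 the medians of these groups lay between -0.082 (proteasome) and -0.018 (other TOP genes), beside -0.024 over all protein-coding genes. These values share the same mice, and no difference between groups was tested.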

How the data were processed

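ATAC-seq had been performed on 14 libraries of mouse Treg cells. The authors aligned the reads to mm10 by bowtie2, took peaks from MACS2 that recurred between replicates, merged these into an atlas and counted reads at peak summits with featureCounts. The deposited table holds the resulting raw counts per 201 bp window in each library. How duplicates, the Tn5 offset and reads shared by overlapping windows were treated is not given in the sources used here, nor is whether window starts count from 0 or 1; coordinates are printed as deposited.

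The counts were tested with edgeR 4.0.16 in R 4.3.3 (TMM scaling, quasi-likelihood test, windows with a mean of at least 10 counts in the libraries of the fit, Benjamini-Hochberg adjustment over all windows tested, threshold 0.05). The study's tool, DESeq2 1.42.0, served as an alternative. The fits compared genotypes within each day and in all libraries (adjusted for day), tested the interaction of the factors, and compared days adjusted for genotype. The ± of a log2 fold change is its standard error (SE), and that of a CPM value is the SD between mice. The script was tested on simulated data. Library totals were 5653289 to 20184487 counts, and windows of low counts carry a large counting error. No libraries were identical, and none were left out.

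Named were the 10 highest and 10 lowest genes by leading level, genes of known role, windows next to the 1 kb limit, and per comparison the 3 highest and 3 lowest log2 fold changes among windows with a mean of at least 50 counts. The genes without a window, the genes of the promoter stretches and windows without overlap between groups were named after their values were seen. Some items under these rules are not reported here. The members and gene lists were chosen with earlier results of these data known. The settings with promoter-table starts, without windows shared with another gene and without both mice that stood apart were added after the data were seen. RefSeq promoter sequences (GRCm38) were matched to members by symbol and found for 69 of 90 genes.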

Additional observations from a re-analysis of the deposited data

Results flagged for a closer look

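Groups of 4 mice were examined 196 times, over the leading and named windows and the library values. In 12, all of single windows, a mouse stood farther from the nearest other mouse, relative to the range of the group, than Dixon's criterion allows. Chance gives about 1 in 20. On day 3, R26WT replicate 4 was high at the leading windows of Rplp0 (53.4 CPM, against 40.3, 40.3 and 40.6 CPM), Rps18 (40.8 CPM, against 30.3 to 31.2 CPM) and Rps28 (24.7 CPM, against 19.5 to 20.3 CPM). R26TIR1(F74G) replicate 3 was low at Rpl13a (31.1 CPM, against 39.1 to 40.4 CPM), Rps27 (16.7 CPM, against 23.9 to 24.7 CPM) and Rpl19 (3.06 CPM, against 3.94 to 4.02 CPM). These are the mice that stood at the ends of the leading windows as a whole, and 6 of the 12 values belonged to them. R26WT replicate 1 was low at Rpl15 (46.8 CPM, against 58.3 to 58.8 CPM) and Rps6 (40.3 CPM, against 51.2 to 51.5 CPM), and R26WT replicate 2 was low at Rps10 (20.9 CPM, against 23.7 to 24.2 CPM) and Rpl4 (14.8 CPM, against 16.7 CPM in each of the others). Away from the start, R26WT replicate 3 was high at the Rpl10 window at 567.5 bp (4.10 CPM, against 3.11 to 3.13 CPM), and R26TIR1(F74G) replicate 1, the library with the lowest total count, was high at the Rpl38 window at 242.5 bp (6.83 CPM, against 3.65 to 4.08 CPM). No difference between the days in the genotype effect passed the interaction test.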

How the results depend on the processing

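Of 313 recomputed values of the comparisons and levels, 303 counted as the same and 10 as moved. A median counted as the same when it changed by less than the spread between mice (0.0717), whatever its sign, and a count when it was equal or within a set ratio. A small median could thus change sign and count as the same, as on day 7 without R26WT replicate 3 (-0.0113). Most counts of called windows were 0 under every setting. Over both days 1 member window, that of Rpl10a, passed in DESeq2 (log2 fold change -0.35, adjusted p = 0.0272), against 0.0644% of all windows, and 1 when windows with a mean under 50 counts were left out (-0.32, adjusted p = 0.0468), against 0.124%. Of 708 recomputed values of named windows, the other 706 kept their side of the threshold, and none changed sign. With leading windows alone the day 7 median was -0.0438. The interaction median was 0.0735 with loess offsets, 0.0723 with TMM factors from promoter windows and 0.0822 with a mean of at least 50 counts. Counting windows within 500 bp gave 182 members, and summing the windows of a gene kept 6 of the 10 highest genes. The cause of these shifts was not tested.

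Leaving out single mice moved the median of the members between -0.161 and -0.0937 for genotype on day 3, between -0.0113 and 0.0623 on day 7 (below 0 without R26WT replicate 3), between -0.0675 and -0.0242 over both days, between 0.0291 and 0.0842 for day and between 0.125 and 0.220 for the interaction, with 0 windows called throughout, and the median level between 29.4 and 30.1 CPM. Mice with the same replicate number did not deviate together (correlation of deviations -0.039 to 0.026 in 4 pairs on day 3 and -0.031 to 0.062 in 3 pairs on day 7). With the replicate number as a block the medians were -0.122, 0.043, -0.046, 0.061 and 0.180 for day 3, day 7, both days, day and interaction, and 0 windows were called. The replicate block with loess offsets gave -0.0397 on day 3 and 0.0731 for the interaction. At these depths the median standard error of a member window was 0.16 on the log2 scale in either genotype comparison within a day, so that small differences of single windows were not detectable.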
